A study of Mus musculus with 24 samples.

Results

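The interferon-stimulated gene module was followed in quiescent and proliferating tumour cells of 3 mouse mammary carcinoma lines. Its 51 members were named by symbol, and each symbol had 1 entry in every gene table, against 24978 genes in the 4T07 table and 49038 genes in each of the D2A1 and EMT6 tables. They comprised 6 receptors and kinases, 7 STAT and IRF factors, 6 nucleic acid sensors, 20 antiviral effectors, 6 interferon-induced GTPases and 6 genes of the ISG15 system and its regulators. Interferons are secreted proteins that warn cells of infection or damage. They bind receptors at the cell surface, and kinases of the JAK family then activate STAT factors, which enter the nucleus alone or with IRF9 and switch on a common set of target genes. The targets block viral replication, sense foreign nucleic acid or feed back on the signal, and tumours with active interferon signalling often express them without any virus.

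Quiescent cells, sorted as p27K high, were set against proliferating cells of the same tumour, sorted as p27K negative. All cells carried mCherry and mVenus-p27K, a fluorescent reporter built on p27, an inhibitor of the cell cycle, that builds up in resting cells. For each line, 250000 transduced 4T07, D2A1 or EMT6 cells were placed in a mammary fat pad of female Balb/cJ mice, and tumours were collected on day 14. The 6 groups were 4T07 p27K high and 4T07 p27K negative, D2A1 p27K high and D2A1 p27K negative, and EMT6 p27K high and EMT6 p27K negative, each with 4 tumours, which gave 24 libraries. Whether a line was 1 clone is not given in the sources used here, and the age of the mice is not given there either. Each line was sequenced in its own run, so levels of different lines cannot be told apart from the run, and all tests compare the gates within a tumour.

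Counts per library were 27887221 to 45460880 in p27K high and 28961831 to 35197694 in p27K negative cells of 4T07, 6727594 to 20174767 and 1335433 to 15641189 in those of D2A1, and 13769682 to 20142013 and 16988365 to 17508301 in those of EMT6. In D2A1, tumours 1, 2 and 3 had the shallowest p27K negative libraries, at 1335433, 2110563 and 1802042 counts. In 4T07, the p27K high library of tumour 2 stood apart, with 13500 genes detected against 15094 to 15370 in the other 3. The gates held up in every tumour by Mki67, a marker of cycling cells, which was lower in p27K high cells of 12 of 12 tumours. Cdkn1b, the gene of p27, was higher in 12 of 12, but the cells were sorted by a reporter built on p27. Cdkn1b is therefore not an independent check. Whether reads of the reporter were counted as Cdkn1b is not given in the sources used here. Cells were also stained for CD45, a surface marker of blood cells, and its gene Ptprc was at 4.56 to 12.5 CPM in p27K high and 19.3 to 38.6 CPM in p27K negative 4T07 libraries. In D2A1 it reached at most 0.661 and 2.77 CPM, and in EMT6 at most 0.299 and 0.235 CPM. CPM values are counts scaled to a common library total and by TMM, a correction for differences in RNA composition between libraries. Values are given in the order of tumours 1, 2, 3 and 4, or 0, 1, 2 and 4 for EMT6.

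In 4T07, 22 of 51 members rose in p27K high cells and 9 fell, at a Benjamini-Hochberg adjusted p under 0.05 in edgeR's quasi-likelihood test with the tumour as a block. Over all genes tested in 4T07, 22.1% rose and 23.6% fell, against 43.1% and 17.6% of the members. In EMT6, 23 of 50 members rose and 7 fell (46% and 14%), against 24.1% and 25.1% of all genes. In D2A1, 4 of 49 members rose and 8 fell (8.16% and 16.3%), against 14.9% and 14.7% of all genes, so the share that fell lay near that of all genes. The median log2 change of the members was 0.15 in 4T07, -0.16 in D2A1 and 0.13 in EMT6, against -0.00, 0.02 and 0.02 for all genes. The D2A1 median rested on single tumours, at -0.25, -0.10, -0.26 and 0.07 without tumours 1, 2, 3 and 4. Within tumours, 26 of 51 members were higher in p27K high cells of 4 of 4 tumours and 13 lower in 4T07, against 29.9% and 31.2% of all genes. The numbers were 7 and 8 of 49 in D2A1, against 23.8% and 22.1%, and 23 and 5 of 50 in EMT6, against 29.6% and 30.1%. Ifitm1 and Irf8 in D2A1 and Ifitm1 in EMT6 were too low to be tested. In bulk RNA, fewer cells of a type and less RNA per cell cannot be told apart.

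These counts depended on single tumours and on the pairing. Of the members, 31, 12 and 30 were called in either direction in 4T07, D2A1 and EMT6, against 45.7%, 29.5% and 49.2% of all genes. In 4T07 the members called were 19 without tumour 1, with 12 that rose, while 13 rose without tumour 4, and 24 rose and 14 fell without tumour 2. Of all 4T07 genes, 1640 rose and 2058 fell without tumour 1, and 1910 rose without tumour 4. Without tumour 2, 3894 of all genes rose and 3833 fell, against 2837 and 3031 with all 4 tumours. In D2A1, 2 members fell without tumour 2, 13 without tumour 3 and 3 without tumour 4, and the members called in all were 5 without tumour 2 and 6 without tumour 4. Of all D2A1 genes, 1300, 2608 and 1346 fell without tumours 2, 3 and 4, against 1882 with all 4. Without the tumour block the member calls were 9 that rose of 16 in 4T07, 4 that rose and 2 that fell in D2A1, and 3 that rose and 2 that fell in EMT6. That is 16 of 51, 6 of 49 and 5 of 50 members, against 34.3%, 27.7% and 33.5% of all genes. With counts scaled only by their total, the median change of all 4T07 genes was -0.14 and that of the members 0.01. Then 13 of 51 members rose and 13 fell. Of all 12849 genes tested in 4T07, 2837 rose and 3031 fell with TMM, against 1908 and 3844 with total-count scaling. The 4T07 calls of Irf7, Irf9, Zbp1, Trim25, Parp9, Oas1a, Ifitm3, Xaf1 and Mx2 were lost with that scaling, at adjusted p of 0.0573 to 0.392.

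**Figure D1:**
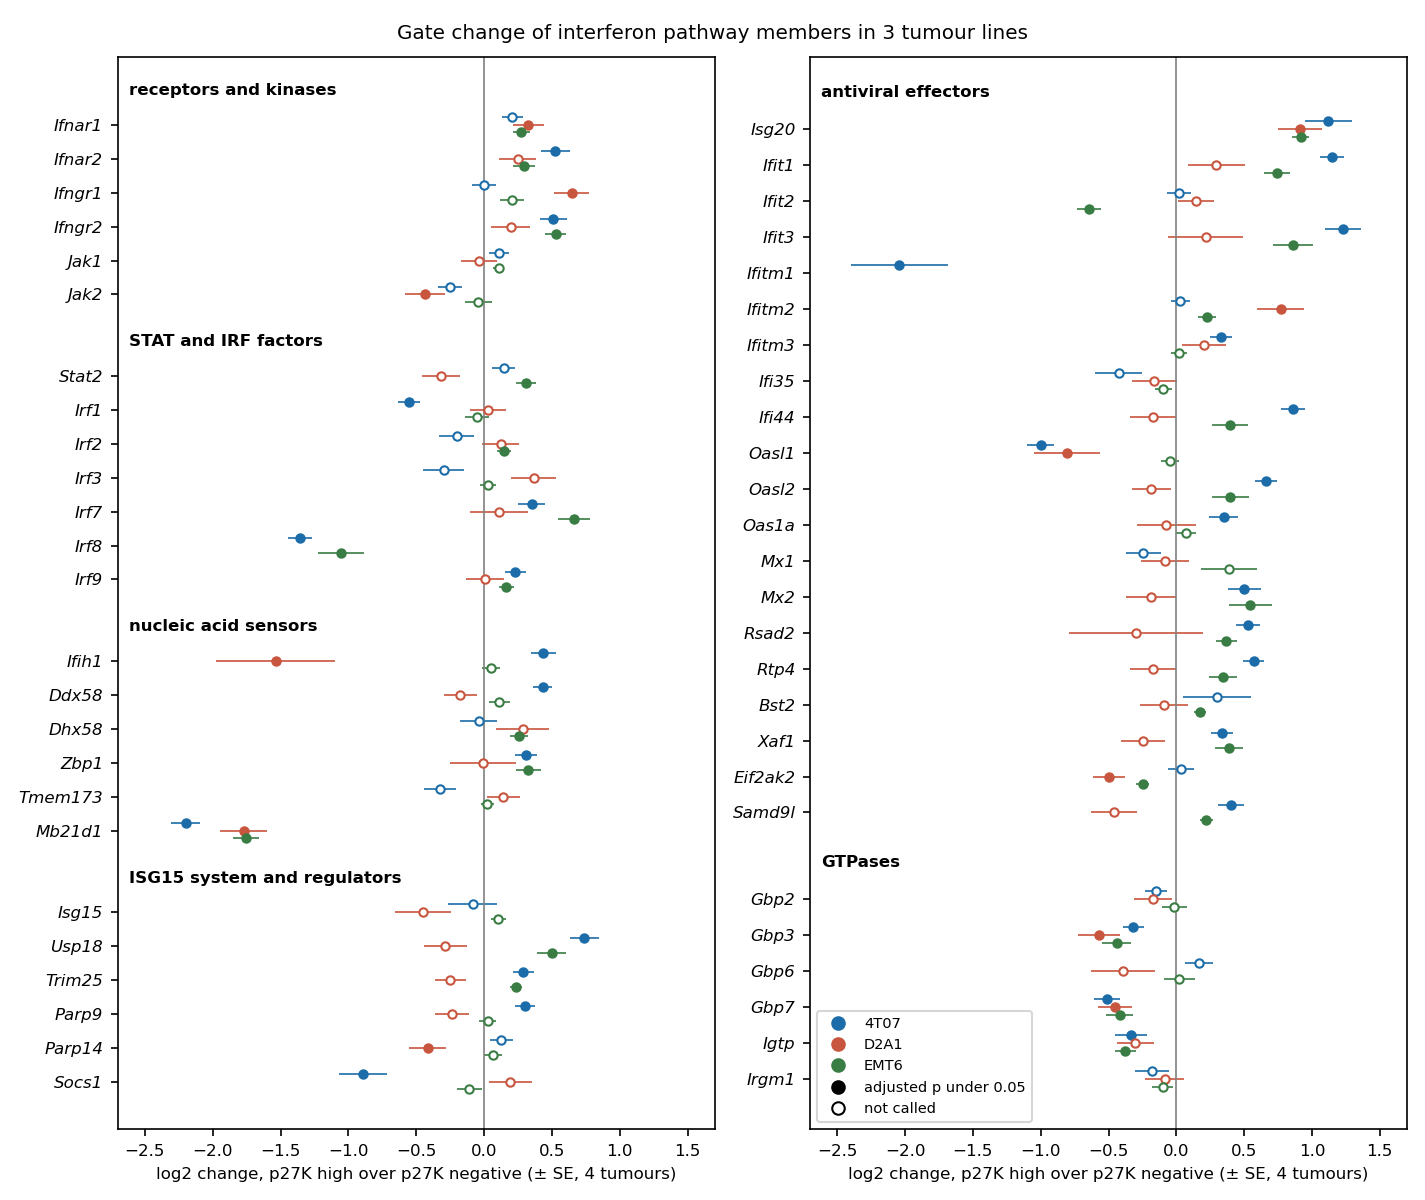
Log2 change of each member in p27K high over p27K negative cells, by role and line (points, edgeR estimate; bars, SE over 4 tumours; filled points, adjusted p under 0.05). Mb21d1 lies far left and Isg20 far right in all 3 lines, and no filled point of the 6 GTPases lies right of 0.

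A few members moved the same way in every line. The strongest was Mb21d1, which encodes cGAS, the enzyme that detects DNA in the cytosol and makes the messenger that activates STING. In 4T07 it had 6.92, 8.19, 6.85 and 8.15 CPM in p27K high cells, against 29.3, 42.9, 30.8 and 36.5 CPM in p27K negative cells. In D2A1 it had 8.43, 8.39, 7.11 and 6.83 CPM in p27K high cells, against 31.2, 23.4, 23.8 and 26.2 CPM in p27K negative cells. In EMT6 it had 8.43, 6.48, 9.13 and 7.86 CPM in p27K high cells, against 25.6, 27.3, 28.1 and 26.9 CPM in p27K negative cells. Every p27K high library was below every p27K negative library of its line, and Mb21d1 was lower in 12 of 12 tumours. The log2 changes were -2.20 ± 0.10, -1.77 ± 0.18 and -1.76 ± 0.10 (SE, n = 4 tumours; edgeR adjusted p = 4.68e-06, 5.96e-06 and 6.03e-07). Tmem173, which encodes STING, was not called in any line, with log2 changes of -0.32 ± 0.12 in 4T07, 0.14 ± 0.12 in D2A1 and 0.03 ± 0.05 in EMT6.

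Isg20, which encodes an exonuclease that degrades RNA, rose in all 3 lines. It had 34.5, 68.6, 33.1 and 30.2 CPM in p27K high cells, against 20.2, 19.7, 16.8 and 15.9 CPM in p27K negative cells in 4T07. It had 40.5, 46.1, 52.6 and 46.8 CPM in p27K high cells, against 14.1, 33.7, 26.0 and 25.1 CPM in p27K negative cells in D2A1. It had 103, 123, 132 and 122 CPM in p27K high cells, against 60.6, 55.9, 73.9 and 64.3 CPM in p27K negative cells in EMT6. The gates did not overlap in any line, and Isg20 was higher in 12 of 12 tumours. The log2 changes were 1.12 ± 0.17, 0.91 ± 0.16 and 0.92 ± 0.06 in 4T07, D2A1 and EMT6 (edgeR adjusted p = 0.00188, 0.00101 and 3.33e-06). Tumour 2 was the highest of the p27K high libraries of 4T07. Of 10773 genes tested in every line, 6.41% rose and 9.62% fell in all 3, against 1 member that rose (Isg20) and 3 that fell (Mb21d1, Gbp3 and Gbp7) of 49.

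**Figure D2:**
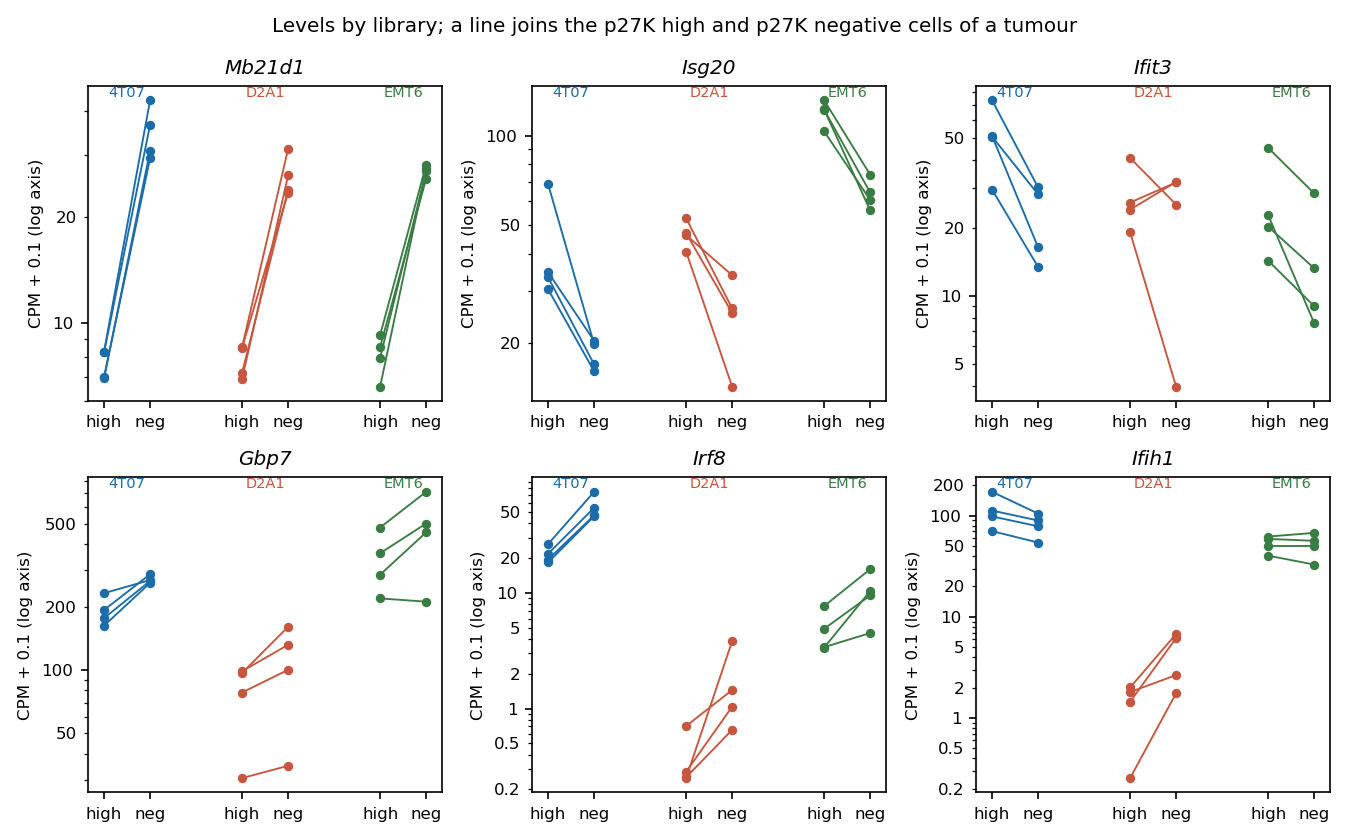
Level of 6 members in each library (CPM + 0.1, log axis), with p27K high left of p27K negative cells and a line joining the gates of a tumour. All lines of Mb21d1 climb to the right and all lines of Isg20 drop, whereas those of Ifit3 in D2A1 cross and Irf8 in D2A1 is too low to be tested.

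Of the 6 receptors and kinases, 2 rose in 4T07, 2 in D2A1 and 3 in EMT6, all of them receptor chains, and 1, the kinase gene Jak2, fell in D2A1. The rises are 33.3%, 33.3% and 50%, against 22.1%, 14.9% and 24.1% of all genes, and the fall 16.7%, against 14.7%. Ifngr2, a chain of the interferon gamma receptor, had 69.2, 91.8, 62.8 and 60.1 CPM in p27K high cells, against 44.7, 55.5, 50.1 and 46.9 CPM in p27K negative cells in 4T07. In EMT6 it had 22.4, 26.9, 28.4 and 25.6 CPM in p27K high cells, against 15.3, 21.6, 18.4 and 16.7 CPM in p27K negative cells. The gates were apart in both lines, with log2 changes of 0.51 ± 0.10 and 0.53 ± 0.08 (edgeR adjusted p = 0.00490 and 4.28e-04). In D2A1 the change was 0.20 ± 0.14, which was not called. The other gamma chain, Ifngr1, had 55.8, 53.2, 58.9 and 56.9 CPM in p27K high cells, against 39.3, 33.7, 31.6 and 38.6 CPM in p27K negative cells in D2A1. These gates were also apart, and the change of 0.65 ± 0.13 (edgeR adjusted p = 0.00227) exceeded that of 4T07, which was 0.00 ± 0.09. In EMT6 the change was 0.20 ± 0.09, not called. The difference between the lines in the joint fit, 4T07 minus D2A1, was -0.67 ± 0.15 (edgeR adjusted p = 0.00402).

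The receptor for type I interferon, the class that includes interferon alpha and beta, has the chains Ifnar1 and Ifnar2. Ifnar1 had 61.5, 57.2, 58.0 and 55.4 CPM in p27K high cells, against 45.9, 51.5, 44.8 and 49.7 CPM in p27K negative cells in EMT6, with no overlap and a log2 change of 0.28 ± 0.06 (edgeR adjusted p = 0.00538). In D2A1 its change was 0.33 ± 0.11 (edgeR adjusted p = 0.0451), a call lost without tumour 1, 2 or 4 at adjusted p of 0.134 to 0.213. That call was also lost with the D2A1 libraries thinned to the shallowest (edgeR adjusted p = 0.0727), with total-count scaling (0.0644) and with DESeq2 (DESeq2 adjusted p = 0.0765). Ifnar2 had 83.2, 122, 63.7 and 81.9 CPM in p27K high cells, against 57.2, 66.4, 51.4 and 63.1 CPM in p27K negative cells in 4T07, where the gates overlapped but it was higher in 4 of 4 tumours, with a change of 0.53 ± 0.11 (edgeR adjusted p = 0.00680). In EMT6 the Ifnar2 change was 0.30 ± 0.08 (edgeR adjusted p = 0.0151, and 0.0980 without the tumour block). Over all tumours Ifnar1 and Ifnar2 were higher in 12 of 12, Ifngr2 in 11 and Ifngr1 in 10. Jak2, a kinase bound to the gamma receptor, changed by -0.43 ± 0.15 in D2A1 (edgeR adjusted p = 0.0394), and this call was lost without tumour 1 or 2 at adjusted p of 0.0599 to 0.131. Jak1, the kinase shared by both receptor types, was not called in any line.

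The STAT and IRF factors moved in both directions. In 4T07, 2 of 7 rose and 2 fell (28.6% each), against 22.1% and 23.6% of all genes. In EMT6, 4 of 7 rose and 1 fell (57.1% and 14.3%), against 24.1% and 25.1%. In D2A1 edgeR called 0 of the 6 tested, against 29.5% of all genes. There 1 was higher and 1 lower at an unadjusted p under 0.05, and 0 were called by DESeq2. The largest change was that of Irf8, a factor that directs the development of monocytes and dendritic cells. It had 19.3, 18.2, 26.3 and 21.7 CPM in p27K high cells, against 46.6, 45.8, 74.6 and 54.1 CPM in p27K negative cells in 4T07. The EMT6 tumours had 3.29, 4.79, 7.58 and 3.26 CPM in p27K high cells, against 4.39, 9.39, 15.9 and 10.2 CPM in p27K negative cells. All p27K high libraries of 4T07 lay below the p27K negative ones, and in EMT6 the gates overlapped across tumours although Irf8 was lower in each of the 4. The changes were -1.36 ± 0.09 and -1.05 ± 0.17 (edgeR adjusted p = 2.81e-05 and 8.37e-04), and the EMT6 call was lost without the tumour block (adjusted p = 0.0538). In D2A1 Irf8 had at most 0.606 CPM in p27K high and 3.71 CPM in p27K negative cells.

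Markers of macrophages and monocytes, cells that also express Irf8, shifted with the gates in 4T07. All 15 markers of the list fell there, and their summed level was 165 to 184 CPM in p27K high and 562 to 1239 CPM in p27K negative libraries. The sum was 141 to 180 CPM against 69.7 to 131 CPM in D2A1, where 1 of 7 tested markers, Cd14, rose and none fell. The D2A1 sum was mostly Cd14, which averaged 137 ± 20.7 CPM in p27K high and 61.6 ± 12.1 CPM in p27K negative cells, while the median change of the 7 was -0.95 and 4 of them were lower in 4 of 4 tumours. In EMT6 it was 46.6 to 59.4 CPM against 32.1 to 46.5 CPM, with 3 rises and 1 fall among 6 tested markers. No marker of this list was at 0 in all libraries of a line. The sum thus shifted downwards with Irf8 in 4T07 and upwards in EMT6, where Irf8 fell, and in D2A1 it went against most of its markers; the part of these markers in the result was not tested.

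**Figure D3:**
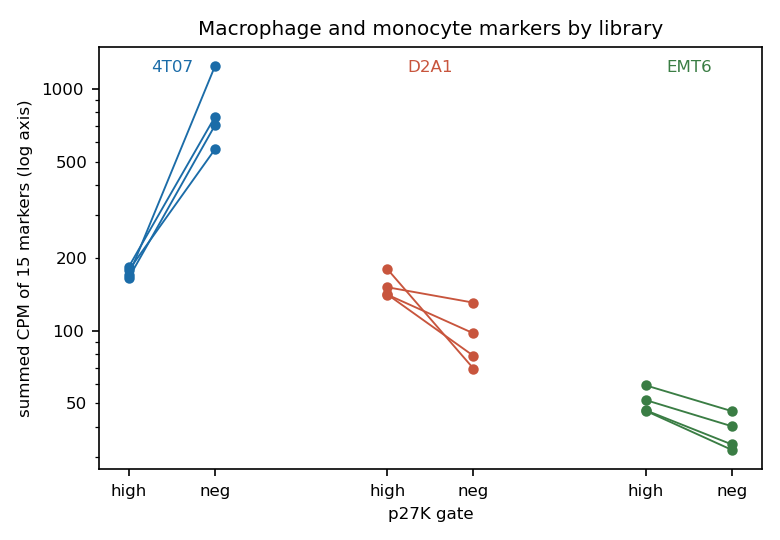
Summed level of 15 macrophage and monocyte markers in each library (CPM, log axis), with p27K high left of p27K negative cells and a line joining the gates of a tumour. The 4T07 p27K high libraries sit at 165 to 184 CPM, all below the p27K negative libraries at 562 to 1239 CPM, and the sum slopes the other way in D2A1, where most of it is Cd14, and in EMT6.

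Irf7, which amplifies production of type I interferon, had 64.5, 60.1, 115 and 77.7 CPM in p27K high cells, against 27.4, 39.7, 90.4 and 52.5 CPM in p27K negative cells in EMT6. It was higher in 4 of 4 EMT6 tumours although tumour 2 was high in both gates, with a change of 0.66 ± 0.12 (edgeR adjusted p = 0.00129, and 0.195 without the block). In 4T07 the change of Irf7 was 0.35 ± 0.10 (edgeR adjusted p = 0.0230), and that call was lost without tumour 1, 3 or 4 at adjusted p of 0.0905 to 0.130 and with total-count scaling at 0.144. Irf1, an activator induced mainly by interferon gamma, had 304, 222, 326 and 287 CPM in p27K high cells, against 439.7, 368, 447 and 403 CPM in p27K negative cells in 4T07. The gates were apart, with a change of -0.55 ± 0.08 (edgeR adjusted p = 0.00129), against 0.03 ± 0.13 in D2A1 and -0.05 ± 0.09 in EMT6, which were not called. Stat2, a factor of the type I response, changed by 0.31 ± 0.07 in EMT6 (edgeR adjusted p = 0.00561, and 0.414 without the block) and by 0.15 ± 0.09 in 4T07 and -0.32 ± 0.14 in D2A1, not called. Irf9, the DNA-binding part of that complex, changed by 0.23 ± 0.08 in 4T07 and 0.17 ± 0.05 in EMT6. Its calls (edgeR adjusted p = 0.0452 and 0.0318) were lost without tumour 1, 3 or 4 in 4T07, at 0.166 to 0.193, or with total-count scaling, at 0.392, and without tumour 2 or 4 in EMT6, at 0.0808 to 0.119. Irf2, a repressor that competes with IRF1, changed by 0.15 ± 0.05 in EMT6 (edgeR adjusted p = 0.0408), a call lost without tumour 1, 2 or 4 at 0.0807 to 0.146. Irf3, the factor activated downstream of STING, was not called in any line.

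Apart from Mb21d1, the nucleic acid sensors were mainly sensors of RNA, and 3 of 6 members of the group rose and 1 fell in 4T07, 2 fell in D2A1, and 2 rose and 1 fell in EMT6. Of all genes, 22.1% rose and 23.6% fell in 4T07, 14.7% fell in D2A1, and 24.1% rose and 25.1% fell in EMT6. Ifih1, which encodes MDA5, a sensor of long double-stranded RNA, was the only member that rose in one line and fell in another, a pattern held by 3.13% of the genes tested in every line. It had 98.5, 173, 70.4 and 113 CPM in p27K high cells, against 78.7, 105, 54.3 and 89.8 CPM in p27K negative cells in 4T07. The D2A1 libraries had 1.91, 1.35, 0.155 and 1.71 CPM in p27K high cells, against 6.68, 6.08, 1.66 and 2.56 CPM in p27K negative cells. The gene was lower in 4 of 4 D2A1 tumours, at a level far under that of 4T07, and tumour 3 had 1 count in its p27K high and 3 counts in its p27K negative library. The changes were 0.44 ± 0.09 in 4T07 and -1.54 ± 0.44 in D2A1 (edgeR adjusted p = 0.00749 and 0.0181). The D2A1 call was lost without tumour 1 or 2 (adjusted p of 0.0829 to 0.110), and without the tumour block the values were 0.206 and 0.0641. Without tumour 4, and with the D2A1 libraries thinned to the shallowest, Ifih1 was too low in D2A1 to be tested. In EMT6 the change was 0.05 ± 0.07, not called.

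Ddx58, which encodes RIG-I, the sensor of short RNA ends, had 154, 177, 119 and 143 CPM in p27K high cells, against 117, 131, 84.8 and 108 CPM in p27K negative cells in 4T07. It was higher in 4 of 4 tumours with overlap between tumours, and its change was 0.43 ± 0.07 (edgeR adjusted p = 0.00246, and 0.0598 without the block), against -0.18 ± 0.12 in D2A1 and 0.11 ± 0.08 in EMT6, not called. Zbp1, a sensor of Z-form nucleic acid, changed by 0.31 ± 0.08 in 4T07 and 0.33 ± 0.09 in EMT6 (edgeR adjusted p = 0.0174 and 0.0161). These calls were lost without tumour 1 or 4 in 4T07 (adjusted p of 0.102 to 0.111) or with total-count scaling (0.129) and without tumour 4 in EMT6 (0.0548), and without the block they stood at 0.101 and 0.612. Dhx58, which encodes LGP2, a relative of RIG-I that tunes the other sensors, changed by 0.26 ± 0.07 in EMT6 (edgeR adjusted p = 0.0119), a call lost without tumour 4 (0.0653) or without the block (0.307).

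The antiviral effectors, a mixed set that includes products acting on viral RNA or virus entry, were 20 of the 51 members. They gave 12 of 22 rises in 4T07, 12 of 23 in EMT6 and 2 of 4 in D2A1. In 4T07, 12 of 20 rose and 2 fell (60% and 10%, against 22.1% and 23.6% of all genes), with a median log2 change of 0.34. In EMT6, 12 of 19 rose and 2 fell (63.2% and 10.5%, against 24.1% and 25.1%), also with a median of 0.34. In D2A1, 2 of 19 rose and 2 fell (10.5% and 10.5%, against 14.9% and 14.7%), with a median of -0.16. Without tumour 0 the EMT6 median was 0.19. In D2A1, 1 effector fell without tumour 2 or 4, and the median was -0.07 without tumour 2, -0.29 without tumour 3 and 0.09 without tumour 4. Of all D2A1 genes, 1300 fell without tumour 2 and 1346 without tumour 4, against 1882. With the D2A1 libraries thinned to the shallowest, 2 effectors rose and 0 fell, while 1395 of all genes rose and 1382 fell. With total-count scaling 8 effectors rose in 4T07, with a median of 0.21, and 1908 of all genes rose, against 2837. Without tumour 1 of 4T07, 7 effectors and 1640 of all genes rose. Without the tumour block, 6 effectors rose in 4T07, 2 in D2A1 and 1 in EMT6. Of all genes, 2001, 1788 and 2008 rose without the block, against 2837, 1912 and 3215 with it.

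Ifit1 and Ifit3 encode proteins that bind viral RNA and each other. Ifit1 had 122, 121, 56.6 and 104 CPM in p27K high cells, against 56.0, 60.2, 25.8 and 41.5 CPM in p27K negative cells in 4T07. In EMT6 it had 32.8, 27.6, 78.1 and 40.7 CPM in p27K high cells, against 14.6, 18.3, 48.2 and 27.7 CPM in p27K negative cells. In D2A1 it had 99.3, 60.8, 47.8 and 61.0 CPM in p27K high cells, against 59.4, 68.8, 18.8 and 72.5 CPM in p27K negative cells. It was higher in every tumour of 4T07 and EMT6, whereas in D2A1 it was higher in tumours 1 and 3 and lower in tumours 2 and 4. The changes were 1.15 ± 0.09, 0.74 ± 0.10 and 0.29 ± 0.21 in 4T07, EMT6 and D2A1 (edgeR adjusted p = 5.85e-05, 1.90e-04 and 0.329), and without the block the EMT6 value was 0.193. Ifit3 had 73.1, 50.4, 29.4 and 50.8 CPM in p27K high cells, against 30.1, 28.0, 13.3 and 16.3 CPM in p27K negative cells in 4T07 and a change of 1.23 ± 0.13 (edgeR adjusted p = 3.88e-04). It changed by 0.86 ± 0.15 in EMT6 (edgeR adjusted p = 0.00105, and 0.182 without the block) and by 0.22 ± 0.27 in D2A1, not called. Ifit3 has a near-identical neighbour, Ifit3b, so reads may have been split or lost between them, and Ifit3b rose by 1.33 ± 0.14 in 4T07 (edgeR adjusted p = 2.96e-04).

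Ifit2, of the same family, did not follow them. It had 18.3, 19.2, 31.0 and 21.7 CPM in p27K high cells, against 33.6, 29.3, 40.3 and 36.8 CPM in p27K negative cells in EMT6. It was lower in 4 of 4 EMT6 tumours, with a change of -0.65 ± 0.09 (edgeR adjusted p = 2.52e-04), and the call held in all 10 alternatives. In 4T07 and D2A1 the changes were 0.02 ± 0.09 and 0.15 ± 0.13, not called. The difference between the lines had the lowest adjusted p of all members (edgeR adjusted p = 0.00233).

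The oligoadenylate synthetase-like genes also parted. Oasl2 had 319, 342, 174 and 243 CPM in p27K high cells, against 208, 187, 116 and 162 CPM in p27K negative cells in 4T07. Oasl1, which limits production of IRF7 protein in mice, had 22.7, 17.9, 11.2 and 17.6 CPM in p27K high cells, against 42.5, 40.3, 23.8 and 31.7 CPM in p27K negative cells there. Oasl2 was higher and Oasl1 lower in each of these tumours, with changes of 0.66 ± 0.08 and -0.999 ± 0.10 (edgeR adjusted p = 6.73e-04 and 2.51e-04). Oasl1 also fell in D2A1, with a change of -0.81 ± 0.25 (edgeR adjusted p = 0.0251), a call lost without tumour 2 or 4 (adjusted p of 0.130 to 0.201) and without the block (0.0548). With the D2A1 libraries thinned to the shallowest, Oasl1 was not called either (edgeR adjusted p = 0.212). In EMT6 its change was -0.05 ± 0.06, not called, while Oasl2 changed by 0.40 ± 0.14 (edgeR adjusted p = 0.0371), a call lost without tumour 2 (0.0816), without the block (0.373) and with DESeq2 (0.138). In D2A1 the change of Oasl2 was -0.18 ± 0.14, not called. Oas1a, which makes the messenger that activates RNase L, changed by 0.35 ± 0.11 in 4T07 (edgeR adjusted p = 0.0332), a call lost without tumour 1, 3 or 4 (0.103 to 0.159) and with total-count scaling (0.182). The Oas1 genes are a family of close copies, so the counts of Oas1a are uncertain.

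The IFITM proteins, which sit in membranes and hinder virus entry, varied by member and line. Ifitm2 had 115, 101, 158 and 109 CPM in p27K high cells, against 60.1, 75.3, 54.2 and 87.2 CPM in p27K negative cells in D2A1. The gates were apart, and Ifitm2 rose by 0.77 ± 0.18 (edgeR adjusted p = 0.00521), against 0.03 ± 0.07 in 4T07, not called, and 0.23 ± 0.07 in EMT6 (edgeR adjusted p = 0.0177, and 0.0896 without tumour 4). Ifitm1 had 2.99, 0.567, 1.34 and 2.63 CPM in p27K high cells, against 5.46, 4.39, 9.69 and 9.77 CPM in p27K negative cells in 4T07. It was lower in all of these tumours, with a change of -2.04 ± 0.36 (edgeR adjusted p = 0.00320), and reached at most 1.39 CPM in p27K high and 1.48 CPM in p27K negative D2A1 libraries, and at most 0.291 and 0.176 CPM in EMT6. Ifitm3 rose by 0.33 ± 0.08 in 4T07 (edgeR adjusted p = 0.0130), a call lost without tumour 1 or 4 (0.0695 to 0.0776) and with total-count scaling (0.0658). Per kilobase of exon it was the most abundant member in p27K high cells of every line, at 593.8, 644.5 and 468.1 CPM per kb in 4T07, D2A1 and EMT6. The IFITM genes are similar copies, and their split of reads is uncertain.

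Of the other effectors, Ifi44, named as an interferon-induced gene, had 99.9, 156, 61.8 and 106 CPM in p27K high cells, against 53.1, 76.3, 36.6 and 64.0 CPM in p27K negative cells in 4T07. It was higher in all 4 tumours, by 0.86 ± 0.09 (edgeR adjusted p = 2.41e-04), and changed by 0.40 ± 0.13 in EMT6 (edgeR adjusted p = 0.0328), a call lost without tumour 2 or 4 at 0.0764 to 0.0957. In D2A1 the change was -0.17 ± 0.17, not called. Rsad2, which encodes viperin, a maker of a chain-terminating nucleotide, had 156, 109, 50.1 and 77.7 CPM in p27K high cells, against 96.3, 69.8, 39.9 and 57.4 CPM in p27K negative cells in 4T07. In EMT6 it had 37.6, 33.5, 108 and 63.2 CPM in p27K high cells, against 23.2, 29.0, 85.8 and 52.6 CPM in p27K negative cells. It was higher in each tumour of both lines, by 0.53 ± 0.09 and 0.37 ± 0.08 (edgeR adjusted p = 0.00296 and 0.00358), but tumours differed more than the gates, and without the block the values were 0.222 and 0.589. In D2A1 it reached at most 2.21 CPM in p27K high and 3.27 CPM in p27K negative libraries.

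Rtp4, Xaf1, Samd9l and Mx2 rose in 4T07 and EMT6 and were not called in D2A1, where the changes were -0.17 ± 0.17, -0.25 ± 0.16, -0.46 ± 0.17 and -0.18 ± 0.19. Rtp4, a chaperone of receptors, rose by 0.57 ± 0.08 and 0.34 ± 0.11. Xaf1, which opposes an inhibitor of cell death, rose by 0.33 ± 0.08 and 0.39 ± 0.10. Samd9l, a restriction factor of viruses, rose by 0.40 ± 0.10 and 0.22 ± 0.05. Mx2, which the annotation gives as a polymorphic pseudogene, rose by 0.50 ± 0.12 and 0.55 ± 0.16. The edgeR adjusted p of these 8 calls were 0.00107, 0.0123, 0.0132 and 0.0128 in 4T07 and 0.0235, 0.0124, 0.00386 and 0.0166 in EMT6, and all 8 were lost without the block. Leaving out a tumour ended the 4T07 calls of Xaf1 and Samd9l (tumour 1 or 4, adjusted p of 0.0678 to 0.0860 and 0.0572 to 0.0819) and Mx2 (tumour 1 or 3, 0.0577 to 0.0867). Total-count scaling ended the 4T07 calls of Xaf1 (0.0797) and Mx2 (0.0573). In EMT6, leaving out a tumour ended the calls of Rtp4 (tumour 2, 0.0598) and Mx2 (tumour 4, 0.0600).

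Eif2ak2, which encodes PKR, a kinase that halts translation on sensing RNA, fell in D2A1 and EMT6. It had 93.8, 76.5, 48.4 and 85.5 CPM in p27K high cells, against 113, 105, 80.3 and 124 CPM in p27K negative cells in D2A1. It was lower in every tumour of D2A1 and EMT6, with a change of -0.50 ± 0.12 and -0.25 ± 0.05 (edgeR adjusted p = 0.00712 and 0.00276, and 0.0803 and 0.206 without the block), against 0.03 ± 0.10 in 4T07, not called. The D2A1 call was also lost with the libraries thinned to the shallowest (edgeR adjusted p = 0.0635). Bst2, which encodes tetherin, rose by 0.17 ± 0.04 in EMT6 (edgeR adjusted p = 0.0101, and 0.693 without the block). Ifi35 and Mx1, a large GTPase that traps viral cores, were not called in any line.

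The 6 interferon-induced GTPases are large guanylate-binding proteins and smaller immunity-related GTPases that attack compartments holding microbes. None of the 6 rose in any line, and 3 fell in 4T07, 2 in D2A1 and 3 in EMT6, at medians of -0.25, -0.35 and -0.24 (edgeR). That is 50%, 33.3% and 50% that fell, against 23.6%, 14.7% and 25.1% of all genes. Of all genes, 22.1%, 14.9% and 24.1% rose. The D2A1 median was -0.14 without tumour 4, and the 4T07 median -0.38 with total-count scaling. At an unadjusted p under 0.05, 0 GTPases were higher in 4T07, D2A1 and EMT6, and DESeq2 called 0 rises. Gbp7 had 177, 233, 163 and 193 CPM in p27K high cells, against 266, 269, 260.4 and 286 CPM in p27K negative cells in 4T07. In D2A1 it had 78.1, 98.6, 30.5 and 96.8 CPM in p27K high cells, against 100.2, 132, 34.9 and 161 CPM in p27K negative cells. In EMT6 it had 219.6, 285, 478 and 361 CPM in p27K high cells, against 212, 454, 708 and 499.8 CPM in p27K negative cells. The gates were apart in 4T07, and Gbp7 was lower in 11 of 12 tumours, EMT6 tumour 0 being the exception. The changes were -0.51 ± 0.10, -0.46 ± 0.13 and -0.42 ± 0.10 (edgeR adjusted p = 0.00431, 0.0151 and 0.00664). The D2A1 call was lost without tumour 1, 2 or 4 (adjusted p of 0.0634 to 0.112) and the EMT6 call without tumour 2 (0.0572), and without the block they stood at 0.352 and 0.296.

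Gbp3 had 208, 201, 140.1 and 207 CPM in p27K high cells, against 262, 261, 181 and 235 CPM in p27K negative cells in 4T07. In D2A1 it had 126, 172, 58.7 and 148 CPM in p27K high cells, against 132, 271, 74.7 and 315 CPM in p27K negative cells. It was lower in 11 of 12 tumours, again with the exception of EMT6 tumour 0. The changes were -0.32 ± 0.07, -0.57 ± 0.15 and -0.44 ± 0.11 in 4T07, D2A1 and EMT6 (edgeR adjusted p = 0.0116, 0.0138 and 0.00820). Each call was lost without 2 of the tumours, numbers 1 and 3 of 4T07, 2 and 4 of D2A1 and 1 and 2 of EMT6, at adjusted p of 0.0686 to 0.0742, 0.0729 to 0.101 and 0.0516 to 0.0692, and without the block (0.161, 0.214 and 0.347). Igtp, which encodes IRGM3, a regulator of the smaller GTPases, changed by -0.33 ± 0.12 in 4T07 and -0.38 ± 0.08 in EMT6 (edgeR adjusted p = 0.0487 and 0.00269). The 4T07 call was lost without tumour 1, 3 or 4 (0.0545 to 0.181) and the EMT6 call without the block (0.582). Without single tumours the number of GTPases that fell in 4T07 was 1 (tumour 1 or 3), 2 (tumour 4) or 4 (tumour 2). In D2A1 it was 0 (tumour 2 or 4), 1 (tumour 1) or 3 (tumour 3). In EMT6 it was 1 (tumour 2), 2 (tumour 1), 3 (tumour 4) or 5 (tumour 0). Of all genes, 2058 to 3833 fell over these fits in 4T07, 1263 to 2608 in D2A1 and 2648 to 3542 in EMT6. Averaged over the lines, Gbp3, Gbp7 and Igtp changed by -0.41 ± 0.08, -0.43 ± 0.07 and -0.31 ± 0.07 (edgeR adjusted p = 4.03e-04, 4.18e-05 and 0.00234), calls that held without any single tumour but not without the block. Gbp2, Gbp6 and Irgm1 were not called in any line, and reads of Gbp6 may be shared with its close copy Gbp10.

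ISG15 is a ubiquitin-like tag that cells attach to proteins during the response, and Isg15 itself was not called in any line, with changes of -0.08 ± 0.18, -0.45 ± 0.21 and 0.10 ± 0.05 in 4T07, D2A1 and EMT6. Usp18, the enzyme that removes the tag and also damps the type I receptor, had 61.4, 41.0, 33.5 and 47.6 CPM in p27K high cells, against 34.7, 30.5, 18.5 and 26.3 CPM in p27K negative cells in 4T07. In D2A1 it had 77.1, 61.9, 39.7 and 54.3 CPM in p27K high cells, against 63.1, 74.4, 45.4 and 95.4 CPM in p27K negative cells. It was higher in every tumour of 4T07 but in 1 of 4 of D2A1, with changes of 0.74 ± 0.11 (edgeR adjusted p = 0.00132) and -0.28 ± 0.16, not called, and a change of 0.50 ± 0.11 in EMT6 (edgeR adjusted p = 0.00353, and 0.350 without the block). Trim25, a ubiquitin ligase that activates RIG-I, changed by 0.29 ± 0.08 in 4T07 and 0.24 ± 0.04 in EMT6 (edgeR adjusted p = 0.0187 and 0.00159). The 4T07 call was lost without tumour 1, 3 or 4 (0.0737 to 0.121) or with total-count scaling (0.155), and the EMT6 call without the block (0.128). In D2A1 the change was -0.25 ± 0.11, not called.

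Parp9 and Parp14 belong to the ADP-ribosyl transferases. Parp9 rose by 0.30 ± 0.08 in 4T07 (edgeR adjusted p = 0.0140), lost without tumour 1 or 4 (0.0874 to 0.0923) and with total-count scaling (0.102). Its changes of -0.24 ± 0.12 in D2A1 and 0.03 ± 0.06 in EMT6 were not called. Parp14 changed by -0.42 ± 0.14 in D2A1 (edgeR adjusted p = 0.0368), lost without tumour 2 or 4 (0.147 to 0.172) and without the block (0.407). This D2A1 call was also lost with the libraries thinned to the shallowest (0.181) and without the filter on low counts (0.0933). The Parp14 changes of 0.13 ± 0.08 in 4T07 and 0.07 ± 0.07 in EMT6 were not called. Socs1, a feedback inhibitor of JAK kinases, had 10.7, 4.74, 8.48 and 11.5 CPM in p27K high cells, against 16.2, 13.4, 17.2 and 16.4 CPM in p27K negative cells in 4T07. The gates were apart, with a change of -0.89 ± 0.18 (edgeR adjusted p = 0.00583), against 0.19 ± 0.16 in D2A1 and -0.11 ± 0.09 in EMT6, not called. In all, 3 of 6 members of this group rose and 1 fell in 4T07, 1 fell in D2A1 and 2 rose in EMT6. Of all genes, 22.1% rose and 23.6% fell in 4T07, 14.7% fell in D2A1 and 24.1% rose in EMT6.

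Whether the gate change itself differed between lines was tested in a joint fit of the 24 libraries. It differed for 19 of 51 members (37.3%), against 24.5% of 13578 genes, and without the tumour block for 3 members, against 11.8% of all genes. By role these were 9 of 20 effectors, 5 of 6 genes of the ISG15 group, 2 of 7 STAT and IRF factors, 2 of 6 sensors, 1 of 6 receptors and kinases and 0 of 6 GTPases. Of the 19, the contrast of 4T07 with D2A1 passed an adjusted p of 0.05 for 16, with 12 changes greater in 4T07 and 4 lower. The contrast of 4T07 with EMT6 passed for 3 (Ifit2, Oasl1 and Socs1), and that of D2A1 with EMT6 for 3 (Ifih1, Ifit2 and Trim25). Usp18 differed by 1.00 ± 0.21 between 4T07 and D2A1 (edgeR adjusted p = 0.00335). Ifi44 differed by 1.01 ± 0.23 (edgeR adjusted p = 0.00551) and Socs1 by -1.10 ± 0.23 (edgeR adjusted p = 0.00310). The calls of difference for Parp14, Ifit1 and Rtp4 were lost in 10, 8 and 8 of the 12 fits that left out a tumour, at adjusted p of 0.0501 to 0.179, 0.0643 to 0.149 and 0.0503 to 0.172.

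**Figure D4:**
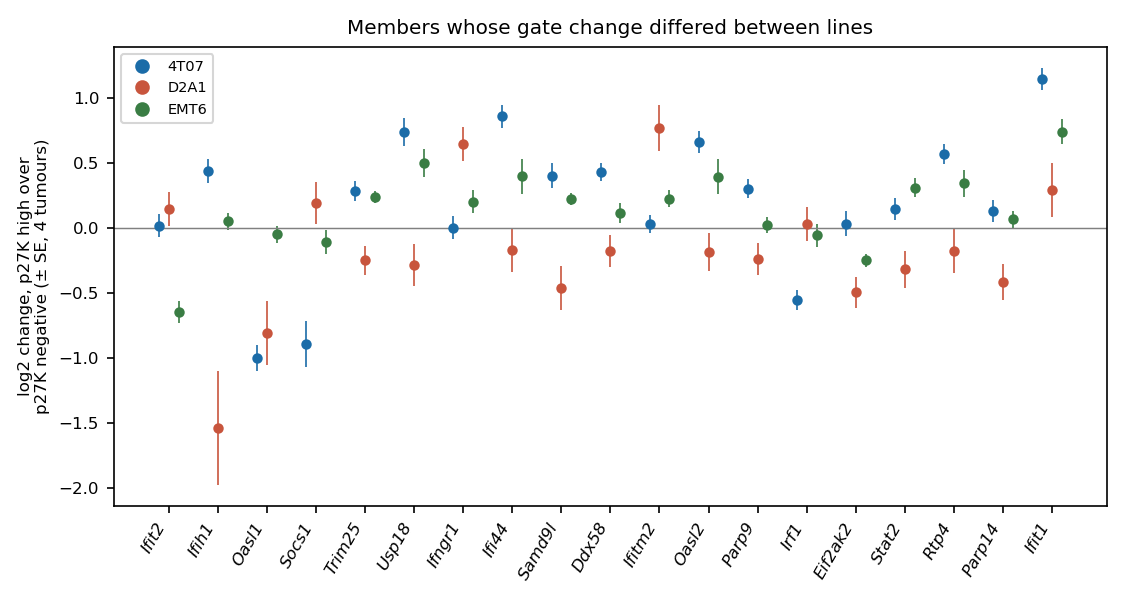
Log2 change in p27K high over p27K negative cells of the 19 members whose change differed between lines, ordered by the adjusted p of that difference (points, edgeR estimate per line; bars, SE over 4 tumours). D2A1 lies below the other lines for Usp18, Ifi44 and Samd9l, and above them for Ifngr1, Ifitm2 and Socs1.

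Averaged over the 3 lines, 28 of 51 members were called (54.9%), against 52.4% of all genes. Of these, 18 rose (35.3%), against 28.3% of all genes, and 10 fell (19.6%), a smaller share than the 3265 of all 13578 genes. Without the tumour block 9 members rose and 3 fell, 12 in all, against 46.1% of all genes called. The highest averages were those of Isg20 (1.01 ± 0.09), Ifit3 (0.79 ± 0.14) and Ifit1 (0.75 ± 0.10), at edgeR adjusted p of 3.83e-08, 1.08e-04 and 6.76e-06. The lowest averages were those of Mb21d1 (-1.88 ± 0.07) and Irf8 (-1.44 ± 0.21), at edgeR adjusted p of 3.60e-13 and 1.86e-05, and both were lower in 12 of 12 tumours. D2A1 weighs equally in the Irf8 average, although Irf8 was too low to be tested in that line alone. It averaged 4.5 counts there in p27K high and 7.25 counts in p27K negative libraries.

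Within D2A1 the tumours did not go the same way. In tumours 1 and 3, 39 and 31 of 49 members were higher in p27K high cells, with median log2 differences of 0.24 and 0.18. In tumours 2 and 4, 15 and 10 of 49 were higher, with medians of -0.18 and -0.52. The medians of all genes were 0.01 to 0.04 in the same tumours. The effectors followed this split, with medians of 0.32 and 0.23 in tumours 1 and 3 and -0.18 and -0.53 in tumours 2 and 4. Without tumour 4 the D2A1 effector median was 0.09, against -0.16 with it. Of the D2A1 p27K negative libraries, that of tumour 4 was the deepest, at 15641189 counts, and the other 3 had the depths given above; the part of depth in the split was not tested.

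The other lines were more even. In 4T07 the effector median was 0.28 to 0.51 in the 4 tumours and the GTPase median -0.35 to -0.11. In EMT6 the effector median was 0.70 in tumour 0 and 0.13 to 0.26 in the others, while the GTPase median was 0.16 in tumour 0 and -0.44 to -0.32 in the others. The effector median lay above the GTPase median in 12 of 12 tumours. Levels also varied between tumours of a line: among p27K high cells the highest library had a median of 1.66, 1.77 and 1.74 times the lowest over the members in 4T07, D2A1 and EMT6, and among p27K negative cells 1.30, 2.39 and 1.87 times. In EMT6, Igtp spanned 3.96-fold between p27K high and 4.68-fold between p27K negative libraries, with tumour 2 high and tumour 0 low in both gates.

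**Figure D5:**
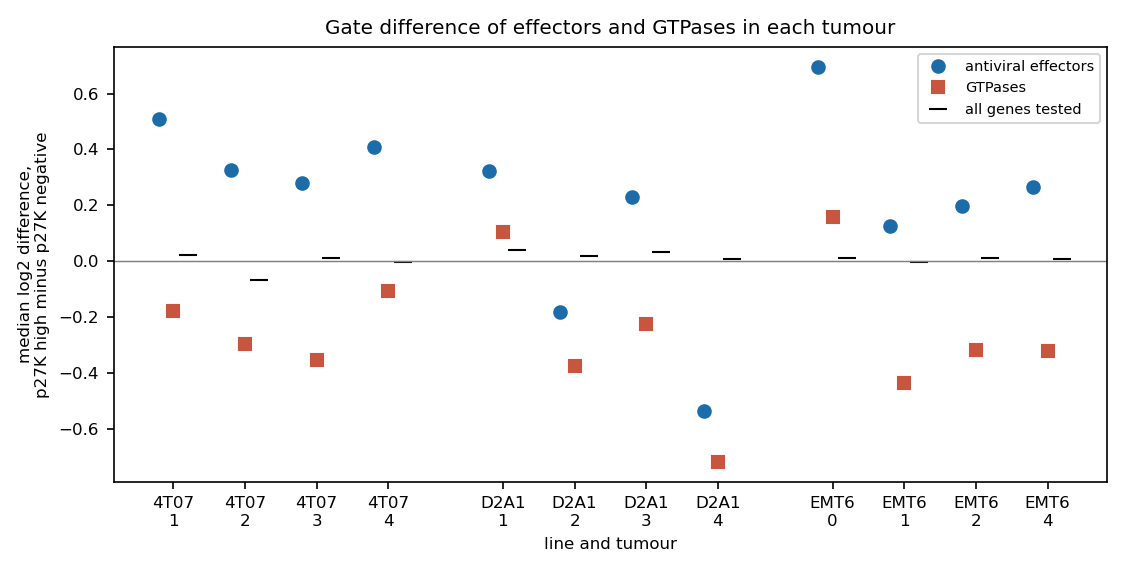
Median log2 difference between p27K high and p27K negative cells in each tumour for the antiviral effectors (circles), the GTPases (squares) and all genes tested (dashes). Circles lie above squares in every tumour, and both change sides of 0 between D2A1 tumours 1 and 4.

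Promoters were read to see which DNA elements of the pathway stand before genes that moved together. The interferon-stimulated response element (ISRE), bound by IRF9 with its partners and by other IRF factors, was searched as GAAA, any 2 bases and GAAA again, and the gamma-activated site (GAS), bound by pairs of STAT factors, as TTCNNNGAA. Both were searched on both strands in the 250 bases before the start of each gene, overlapping matches counted, in RefSeq sequences of GRCm38.p6, where 41 of 51 members had an entry. An ISRE stood before 15 of the 41 (36.6%), against 3.46% of 27025 genes, and a GAS before 11 (26.8%), against 8.13%. By role an ISRE stood before 5 of 5 GTPases with an entry, 6 of 17 effectors, 2 of 7 STAT and IRF factors, 2 of 3 genes of the ISG15 group, 0 of 6 receptors and kinases and 0 of 3 sensors. A match is a description of letters and does not show that a factor binds there.

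The 160 bases before the start are shown for pairs that rose (Ifit1 and Ifit3) or fell (Gbp3 and Gbp7) together, for Igtp, and for Isg20 and Mb21d1, which were called in every line, 5′ to 3′ on the strand of the gene. Capitals mark ISRE matches in the first 5 and the GAS match in Isg20, and Mb21d1 holds no match to either element in its window. The windows of Gbp7 and Igtp also hold GAS matches, not capitalised. Isg20 has 3 start windows and Gbp3 has 2, and the first, shown here, is the one with a match in each. In Ifit1 the matches begin 104 and 85 bases before the start (chr19:34640729-34640888, plus strand), and in Ifit3 at 156 and 122 bases (chr19:34583369-34583528, plus strand).
Ifit1: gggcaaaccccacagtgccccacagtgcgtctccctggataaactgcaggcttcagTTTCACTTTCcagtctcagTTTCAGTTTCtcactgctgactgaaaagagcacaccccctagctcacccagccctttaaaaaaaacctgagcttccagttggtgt
Ifit3: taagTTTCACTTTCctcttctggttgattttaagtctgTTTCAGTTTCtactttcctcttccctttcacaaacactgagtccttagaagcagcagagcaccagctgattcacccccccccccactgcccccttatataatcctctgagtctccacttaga
The matches begin 45 and 39 bases before the start of Gbp3 (chr3:142559884-142560043, plus strand) and 53 bases before that of Gbp7 (chr3:142530176-142530335, plus strand), and 34 bases before that of Igtp (chr11:58199396-58199555, plus strand).
Gbp3: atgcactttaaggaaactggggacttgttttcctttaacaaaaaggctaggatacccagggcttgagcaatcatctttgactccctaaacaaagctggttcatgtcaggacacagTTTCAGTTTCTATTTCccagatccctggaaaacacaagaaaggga
Gbp7: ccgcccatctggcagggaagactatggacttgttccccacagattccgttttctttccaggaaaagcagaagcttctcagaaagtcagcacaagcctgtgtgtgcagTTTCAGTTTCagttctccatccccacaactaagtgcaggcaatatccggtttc
Igtp: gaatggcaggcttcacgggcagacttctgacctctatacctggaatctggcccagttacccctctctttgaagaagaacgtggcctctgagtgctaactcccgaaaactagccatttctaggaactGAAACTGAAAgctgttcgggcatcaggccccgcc
The GAS match of Isg20 begins 73 bases before its start (chr7:78913264-78913423, plus strand), and Mb21d1 lies on the minus strand (chr9:78443238-78443397).
Isg20: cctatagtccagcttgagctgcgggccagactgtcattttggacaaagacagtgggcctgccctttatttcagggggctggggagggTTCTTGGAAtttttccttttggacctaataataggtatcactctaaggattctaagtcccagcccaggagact
Mb21d1: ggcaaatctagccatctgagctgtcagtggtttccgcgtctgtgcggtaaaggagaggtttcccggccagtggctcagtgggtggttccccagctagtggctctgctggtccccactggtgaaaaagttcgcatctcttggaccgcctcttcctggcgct
Matches to the ISRE stood both before Ifit1 and Ifit3, which rose in 4T07 and EMT6, and before Gbp3, Gbp7 and Igtp, which fell in those lines.

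Other genes of the pathway were counted from lists besides the members. Of 11 interferon genes none had enough counts to be tested in any line, and Ifnb1, the interferon beta gene, averaged 4.25 counts in p27K high and 13.5 counts in p27K negative 4T07 libraries. Of 24 further signalling genes, 4 of 22 tested rose and 6 fell in 4T07, 7 of 18 rose and 1 fell in D2A1, and 7 of 17 rose and 3 fell in EMT6. Over all genes tested, 22.1% rose and 23.6% fell in 4T07, 14.9% and 14.7% in D2A1, and 24.1% and 25.1% in EMT6. Stat3, which serves mainly interleukin-6 type signals, rose by 0.51 ± 0.07, 0.61 ± 0.11 and 0.43 ± 0.05 (edgeR adjusted p = 0.00115, 0.00117 and 1.31e-04).

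Of 81 further interferon targets, 13 of 80 tested rose and 22 fell in 4T07, 1 of 72 rose and 7 fell in D2A1, and 19 of 74 rose and 14 fell in EMT6. The shares of all genes that rose and fell were 22.1% and 23.6%, 14.9% and 14.7%, and 24.1% and 25.1%. The median log2 change of these targets was -0.05 in 4T07, -0.12 in D2A1 and 0.00 in EMT6. Slfn9, of the Schlafen family, averaged 36.2 ± 17.3 CPM in p27K high and 256 ± 43.1 CPM in p27K negative cells in 4T07 (SD, n = 4 each). It changed by -2.91 ± 0.15, -2.48 ± 0.16 and -2.59 ± 0.12 in 4T07, D2A1 and EMT6 (edgeR adjusted p = 8.80e-06, 9.46e-08 and 1.48e-07). Cxcl10, a chemokine that draws T cells, averaged 15.3 ± 5.30 CPM in p27K high and 50.4 ± 10.5 CPM in p27K negative cells in 4T07 (SD, n = 4 each). It changed by -1.76 ± 0.11, -0.60 ± 0.18 and -1.02 ± 0.12 (edgeR adjusted p = 2.73e-05, 0.0230 and 9.94e-05), and in 4T07 it fell beside the macrophage markers given above, whose part in the result was not tested. The rises with the smallest p were Ifit3b in 4T07, Trim26, a ubiquitin ligase, in D2A1 (0.46 ± 0.13, edgeR adjusted p = 0.0155) and Ifi203, a relative of DNA sensors, in EMT6 (0.45 ± 0.05, edgeR adjusted p = 4.02e-05).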

How the data were processed

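RNA was measured by bulk sequencing in 24 sorted libraries, 2 gates from each of 12 tumours. Cells of enzyme-digested tumours were stained with DAPI and for CD45 and sorted by mVenus on an AriaIII, per the labels' protocols. The authors deposited whole-number counts per gene without normalization, 1 table for each line, made by GENEWIZ per the labels' protocols. The submitters' processing notes name mm10 and DESeq2, while aligner, counter, library kit and strandedness were not given in the sources used here. Reads of close gene copies, or of genes that overlap on either strand, may therefore be shared or lost.

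Symbols were matched without regard to case, entries of the same symbol were summed, and 176 entries with a blank name in the D2A1 and EMT6 tables (at most 0.0109% of the counts of a library), the totals entry and 4 entries per table with a date for a name were left out. All 24 count columns were used, and 0 value columns were left unused. Errors and p-values rest on how the gate difference varied from tumour to tumour and on count noise. The fit shares information on spread between genes, so errors and p-values do not measure the spread of a single gene alone.

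Each line was fitted with edgeR 4.0.16 (R 4.3.3, limma 3.58.1): TMM scaling, default filter on low counts, tumour as a block, quasi-likelihood F test, 2-sided, Benjamini-Hochberg adjustment over all genes tested, called at 0.05. The SE is the size of the log2 change over the square root of F. A joint fit with 12 tumour blocks gave the average change and the test of equal change in the lines. The procedure was tested on simulated data. Within-tumour differences of single tumours are of log2 CPM with a prior count of 2.

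The labels give both gates of a 4T07 or D2A1 tumour the same number. The 4T07 columns are named low and High, per the file headers, and low was taken as the p27K negative gate of the titles. EMT6 columns carry 0, 1, 2 and 4, unlike the titles, and were paired by these numbers, since over 5000 genes the deviations of same-numbered libraries correlated at 0.574 to 0.813. For 4T07 the range was 0.195 to 0.801, and for D2A1 0.0834 to 0.294. Each p27K high library correlated best with the p27K negative library of its own number within its line. The reverse match was not checked.

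The members and lists were chosen with earlier results of these data known. Named were, per role and line, up to 5 members with the smallest adjusted p and a sign shared by 3 or more of 4 tumours, every member whose change differed between lines, every member not tested, Cdkn1b, Mki67 and Ptprc, and of other pathway genes those with the smallest p. Stat3, Ifnb1 and Jak1 were among those added for their role or after their values were seen, as were other uncalled members. Promoters are RefSeq sequences, and gene and exon annotation is that of GENCODE vM21 on GRCm38. Alternatives were RLE size factors, total-count scaling, DESeq2 1.42.0, no filter or a filter of 20 counts in 4 libraries, no tumour block, leaving out each tumour and, added after seeing the data, D2A1 libraries thinned to the shallowest. 1 gene of the signalling list is not reported here.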

Additional observations from a re-analysis of the deposited data

Results flagged for a closer look

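Of 150 sets of 4 within-tumour log2 differences (a member in a line), 15 held a tumour that stood far from the other 3, where chance gives about 5%, or 1 in 20 groups. In 4T07 Jak1 was at 0.25 in tumour 2 against 0.05 to 0.07 in the others, Stat2 was at 0.39 in tumour 1 against 0.06 to 0.07 in the others, Irf2 was at 0.29 in tumour 2 against -0.41 to -0.29 in the others, Irf3 was at -0.88 in tumour 2 against -0.16 to -0.02 in the others, Irf9 was at 0.071 in tumour 2 against 0.26 to 0.30 in the others, Ifih1 was at 0.72 in tumour 2 against 0.32 to 0.38 in the others, Oasl2 was at 0.87 in tumour 2 against 0.58 to 0.62 in the others and Usp18 was at 0.43 in tumour 2 against 0.82 to 0.86 in the others. In D2A1 Ifit2 was at 0.57 in tumour 1 against 0.01 to 0.03 in the others and Irgm1 was at -0.62 in tumour 4 against 0.09 to 0.15 in the others. In EMT6 Ifnar2 was at 0.64 in tumour 0 against 0.16 to 0.21 in the others, Stat2 was at 0.61 in tumour 0 against 0.18 to 0.24 in the others, Ifit3 was at 1.58 in tumour 0 against 0.61 to 0.67 in the others, Oasl2 was at 1.10 in tumour 0 against 0.13 to 0.25 in the others and Rtp4 was at 0.86 in tumour 0 against 0.18 to 0.22 in the others. Of the 8 in 4T07, 7 concerned tumour 2, whose p27K high library had 13500 genes detected against 15094 to 15370 in the other 3, and the part of this library was not tested.

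The gate change differed between the 3 lines for 19 members in the joint fit. By edgeR adjusted p of the difference, those under 0.01 were Ifit2 (0.00233), Ifih1 (0.00299), Oasl1 (0.00333), Socs1 (0.00610), Trim25 (0.00639), Usp18 (0.00697) and Ifngr1 (0.00890). The others were Ifi44 (0.0131), Samd9l (0.0132), Ddx58 (0.0136), Ifitm2 (0.0201), Oasl2 (0.0212), Parp9 (0.0214), Irf1 (0.0227), Eif2ak2 (0.0255), Stat2 (0.0330), Rtp4 (0.0388), Parp14 (0.0433) and Ifit1 (0.0472). The changes of each line are given with the members above. The sign of the estimate was opposite in 4T07 and D2A1 for Usp18, Ifi44, Samd9l, Ddx58 and Ifih1, among others. Of the genes just named, only Ifih1 was called in D2A1, and Ifi44 was higher in p27K high cells of 3 of 4 D2A1 tumours. The lines were sequenced in separate runs, and the part of the run in these differences cannot be told apart from the line.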

How the results depend on the processing

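Counts of members called moved with the pairing and with single tumours. Without the replicate block 16 members were called in 4T07 (9 rose), against 31 with it; 6 in D2A1 (2 fell), against 12; 5 in EMT6 (3 rose, 2 fell), against 30; 12 on average (9 rose, 3 fell), against 28; and 3 differed between lines, against 19. Of all genes, 4407, 3563 and 4471 were called without the block in 4T07, D2A1 and EMT6, against 5868, 3794 and 6567. With total-count scaling 13 members rose in 4T07, against 22, and 1908 of all genes rose, against 2837. With D2A1 thinned to its shallowest library, an alternative chosen after seeing the data, 4 members fell, against 8. Of all D2A1 genes, 1382 fell with thinning, against 1882. The cause was not tested. Leaving out 1 tumour in turn gave 19 to 38 members called in 4T07 (12 to 24 rose, 7 to 14 fell), and 3698 to 7727 of all genes. In D2A1 it gave 5 to 17 (3 to 4 rose, 2 to 13 fell), and 2444 to 5051 of all genes. In EMT6 it gave 23 to 36, and 5084 to 6984 of all genes. The average over the lines gave 24 to 30 members called, and 13 to 21 members differed between lines.

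No called member changed sign under an alternative. Of the calls, 15 of 31 in 4T07, 4 of 12 in D2A1, 5 of 30 in EMT6, 11 of 28 on average and 2 of 19 of the differences between lines held in all alternatives run. Of the values that were not called, 58 of 805 changed sign, to between -0.13 and 0.40. After its change of sign 1 value, in EMT6, was called. Alternatives also added calls: 33 of the 805 values became called, in 20 of the 77 uncalled sets of a member and a line. In D2A1, Irf8, Ifitm1, Ifih1 and Rsad2 rest on few counts, on average 4.5, 10, 23 and 25.5 in p27K high and 7.25, 4.25, 16.2 and 10.8 in p27K negative libraries.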

Other observations

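Markers of other cell types were summed in the same libraries, and their part in the changes of the members was not tested. The endothelial markers summed to 2.84 to 5.04 CPM in p27K high and 9.20 to 14.1 CPM in p27K negative libraries of 4T07 (0 rose and 4 fell of 4 tested), to 0.735 to 4.35 CPM in p27K high and 8.86 to 29.0 CPM in p27K negative libraries of D2A1 (0 rose and 2 fell of 2 tested) and to 2.84 to 8.76 CPM in p27K high and 3.64 to 15.4 CPM in p27K negative libraries of EMT6 (0 rose and 0 fell of 1 tested). The fibroblast and pericyte markers summed to 1472 to 2259 CPM in p27K high and 562 to 736 CPM in p27K negative libraries of 4T07 (2 rose and 1 fell of 7 tested), to 607 to 712 CPM in p27K high and 559 to 695 CPM in p27K negative libraries of D2A1 (1 rose and 3 fell of 7 tested) and to 5938 to 7824 CPM in p27K high and 4745 to 6268 CPM in p27K negative libraries of EMT6 (5 rose and 0 fell of 6 tested). The carcinoma epithelium markers summed to 432 to 571 CPM in p27K high and 566 to 687 CPM in p27K negative libraries of 4T07 (0 rose and 2 fell of 5 tested), to 92.8 to 203 CPM in p27K high and 62.7 to 605 CPM in p27K negative libraries of D2A1 (0 rose and 1 fell of 2 tested) and to 609 to 873 CPM in p27K high and 769 to 1059 CPM in p27K negative libraries of EMT6 (0 rose and 1 fell of 5 tested). The neutrophil markers summed to 34.6 to 65.9 CPM in p27K high and 81.6 to 92.2 CPM in p27K negative libraries of 4T07 (0 rose and 4 fell of 7 tested), to 148 to 204 CPM in p27K high and 139 to 199 CPM in p27K negative libraries of D2A1 (1 rose and 0 fell of 2 tested) and to 3.09 to 4.61 CPM in p27K high and 1.82 to 4.33 CPM in p27K negative libraries of EMT6 (1 rose and 0 fell of 2 tested). The dendritic and plasmacytoid markers, without the member Bst2, summed to 4.30 to 5.45 CPM in p27K high and 13.4 to 23.4 CPM in p27K negative libraries of 4T07 (0 rose and 1 fell of 2 tested), to 5.41 to 8.20 CPM in p27K high and 1.48 to 6.98 CPM in p27K negative libraries of D2A1 (0 rose and 0 fell of 1 tested) and to 5.86 to 7.78 CPM in p27K high and 4.03 to 5.81 CPM in p27K negative libraries of EMT6 (1 rose and 0 fell of 1 tested). T and NK cell markers summed to at most 1.58 CPM in any p27K high and 4.22 CPM in any p27K negative library, and B cell markers to at most 0.988 and 0.922 CPM.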
